A study of Drosophila melanogaster with 4 samples.

Results

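The Bearded family consists of small genes of the Notch pathway that lie in the Enhancer of split complex, E(spl), and in the Bearded complex, Brd, of *Drosophila melanogaster*. The members were chosen by gene name. The family list holds 9 names, which matched 8 of the 14885 gene identifiers in the count tables, because Bob is a synonym of BobA (FBgn0040487) in the reference gene table. These 8 genes are E(spl)malpha-BFM (FBgn0002732), E(spl)m4-BFM (FBgn0002629), E(spl)m2-BFM (FBgn0002592) and E(spl)m6-BFM (FBgn0002632) on chromosome arm 3R, and Tom (FBgn0026320), Brd (FBgn0000216), Ocho (FBgn0040296) and BobA on arm 3L.

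Bearded proteins are known to bind Neuralized, the E3 ubiquitin ligase that promotes endocytosis of the Notch ligand Delta, and thereby to hold back Delta signalling from the cell that makes them. Many of the genes are direct targets of Notch through its DNA-binding partner Su(H), or of proneural activators, so that they sit both downstream and upstream of the pathway. In the eye disc, Notch and the E(spl) complex act at and behind the morphogenetic furrow, where photoreceptor founder cells are singled out.

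RNA was sequenced from eye-antennal discs, the larval tissue of the future eye and antenna, taken from wandering larvae of the third instar. The glass mutant gl[60j] gave 2 libraries, which the series' design text counts as technical replicates, and Canton S and RAL-208, both wild-type strains, gave 1 library each and count as biological replicates. Glass is a DNA-binding zinc finger protein on which photoreceptors depend for their differentiation. The labels do not say whether the mutant stock shares the genetic background of either wild-type strain. Genotype cannot be told apart from background, or from any difference in exact stage at dissection. Being technical replicates, the mutant libraries were summed to 1 sample in the test. Replicate spread then comes only from how far the wild-type strains lie apart. The test also draws each gene's error toward values shared over all genes.

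The mutant libraries held 11292175 and 27044633 gene reads, against 12118170 in Canton S and 11805345 in RAL-208. Levels are given in CPM, the reads of a gene scaled to the library's total of gene reads. The gl transcript stood at 105 and 108 CPM in the mutant libraries, against 299 CPM in Canton S and 235 CPM in RAL-208. The labels do not say what the allele does to the transcript. The 7 eye and antennal disc markers (ey, eya, so, dac, ct, hth and Dll) were present in every library at 99.4 CPM or more. Of 7 measured photoreceptor markers other than gl, 7 had both mutant libraries below both wild types, as 41% of all tested genes did, and Pph13 had 0 mutant reads. Their summed level was 424 and 416 CPM in the mutant libraries, against 828 CPM in Canton S and 823 CPM in RAL-208. Summed fat body markers came to 2787 and 2711 CPM in the mutant libraries, against 19341 CPM in Canton S and 10388 CPM in RAL-208, but only Lsp1beta and Lsp1gamma of the 5 lay below both strains, while Lsp2, Fbp1 and Fbp2 lay between them. In whole discs, fewer cells of a type and less RNA per cell cannot be told apart.

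As a whole the Bearded family was higher in the glass mutant, while 2 of its members did not follow. Its summed level was 1238 and 1168 CPM in the mutant libraries, against 804 CPM in Canton S and 773 CPM in RAL-208, a ratio of mean levels of 1.53. Brd had the largest ratio among the genes that passed the filter on low counts, followed by Tom, E(spl)m2-BFM, E(spl)m4-BFM and E(spl)malpha-BFM. E(spl)m6-BFM lay lower in the mutant, and Ocho had mutant levels between those of the wild-type strains. None of these differences passed the test across all genes, edgeR's quasi-likelihood test on summed mutant libraries with Benjamini-Hochberg adjustment, which called 0 of 9059 genes. An exact permutation test over 1 mutant and 2 wild-type samples cannot go below p = 0.333.

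**Figure D1:**
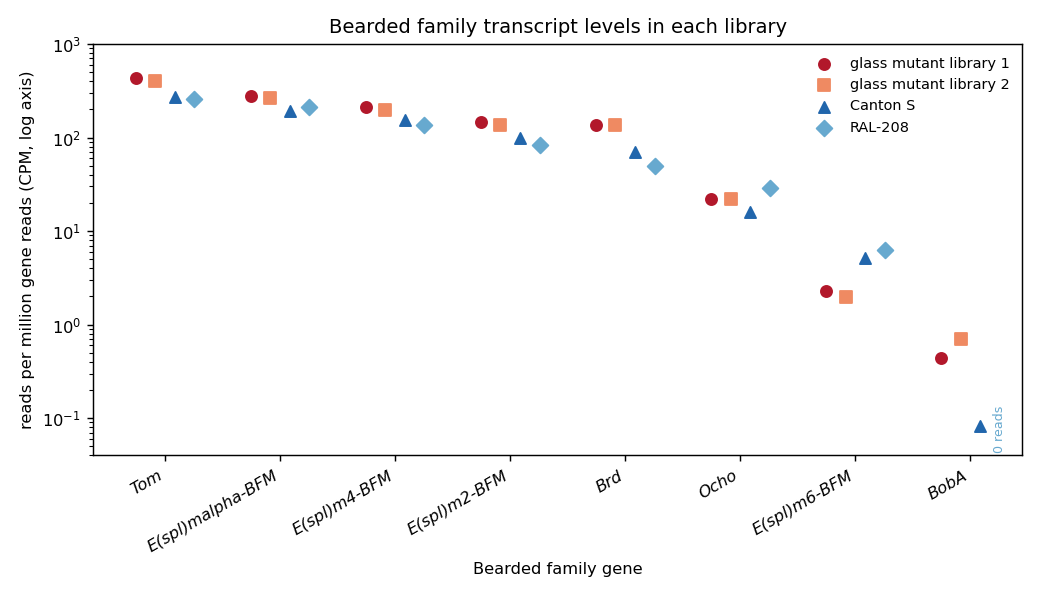
Level of each Bearded family gene in each library, in CPM on a log axis, with the mutant libraries as red and orange points and the wild-type strains as blue points. Tom, E(spl)malpha-BFM, E(spl)m4-BFM, E(spl)m2-BFM and Brd had both mutant points above both wild-type points, E(spl)m6-BFM had both below, and Ocho had the mutant points between the strains.

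Within the E(spl) complex, E(spl)malpha-BFM, whose excess expression is known to interfere with Notch signalling in bristle and eye development, was measured at 280 and 267 CPM in the mutant libraries, against 191 CPM in Canton S and 213 CPM in RAL-208. The groups did not overlap, and the fitted log2 fold change was 0.50 (95% interval 0.13 to 0.86, adjusted p = 0.237 in edgeR with summed mutant libraries). E(spl)m4-BFM, its close relative in the complex and a Notch target in proneural clusters, had 212 and 198 CPM in the mutant libraries, against 153 CPM in Canton S and 136 CPM in RAL-208. Both mutant libraries again lay above both strains, with a log2 fold change of 0.56 (0.15 to 0.96) and an edgeR adjusted p of 0.235.

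E(spl)m2-BFM had 147 and 136 CPM in the mutant libraries, against 100.1 CPM in Canton S and 83.5 CPM in RAL-208. Its mutant values were above both strains, with a log2 fold change of 0.68 (0.21 to 1.15) and an edgeR adjusted p of 0.228. E(spl)m6-BFM went the other way, at 2.30 and 1.96 CPM in the mutant libraries (26 and 53 reads), against 5.20 CPM in Canton S and 6.35 CPM in RAL-208 (63 and 75 reads). This low gene was 2.71-fold lower in the mutant by mean CPM, with a log2 fold change of -1.41 (-2.78 to -0.04) and an edgeR adjusted p of 0.294.

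Several markers listed for other cell types were also lower in the mutant, but not all. Of 6 measured markers of the central nervous system and its neuroblasts, 5 had both mutant libraries below both wild types, as 41% of tested genes did, and the summed level of all 6 was 157 and 156 CPM in the mutant libraries, against 326 CPM in Canton S and 333 CPM in RAL-208. In edgeR with summed mutant libraries 0 of them passed when adjusted over all genes and 4 were lower at an unadjusted p under 0.05 (wor, brp, Rdl and Syt1), while dpn was at a log2 fold change of -0.020 and mira at -0.064. In the sum, brp had 40.0 and 39.7 CPM in the mutant libraries, against 132 CPM in Canton S and 104 CPM in RAL-208. Syt1 had 26.3 and 28.0 CPM there, against 87.5 CPM in Canton S and 96.7 CPM in RAL-208. Neurons in general, photoreceptors included, can express brp and Syt1, so the sum does not measure brain tissue alone. Of 4 haemocyte markers, 3 had both mutant libraries below both wild types. The 4 had a median of -0.75 (log2 fold change) and summed levels of 231 and 214 CPM in the mutant libraries, against 221 CPM in Canton S and 482 CPM in RAL-208. The glia marker repo had both mutant libraries above both wild types, as 26.2% of tested genes did. It stood at 42.3 and 38.1 CPM in the mutant libraries, against 34.4 CPM in Canton S and 26.9 CPM in RAL-208. The muscle markers measured, Mlc2 and Tm2, had mutant levels between those of the strains. None of these markers was at 0 reads in any library. Their part in the value of E(spl)m6-BFM was not tested.

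In the Brd complex, Tom, the family member with the most reads and a known inhibitor of Neuralized in the embryo, had 437 and 405 CPM in the mutant libraries, against 268 CPM in Canton S and 255 CPM in RAL-208. The strains were close to each other and both mutant libraries lay well above them, at a log2 fold change of 0.74 (0.41 to 1.06) and an edgeR adjusted p of 0.209. Brd, the founding member, in which gain-of-function alleles give extra bristles, had 137 CPM in each mutant library, against 70.1 CPM in Canton S and 50.2 CPM in RAL-208. Its mean of 60.2 ± 14.1 CPM in wild type (SD, n = 2) stood against a mutant mean of 137 CPM, a ratio of 2.28. The log2 fold change of Brd was 1.26 (0.56 to 1.96) with an edgeR adjusted p of 0.212, and 2.09% of the tested genes had a higher fold change.

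Ocho, a neighbour of Brd in the complex, had 21.9 and 22.3 CPM in the mutant libraries, against 15.9 CPM in Canton S and 29.1 CPM in RAL-208. The mutant values lay between the strains, with a log2 fold change of 0.05 (-1.21 to 1.32) and an edgeR adjusted p of 0.967. The direction of that value depended on the strain, since the log2 fold change was -0.31 without Canton S and 0.54 without RAL-208. With no scaling factor it was -0.022, a change of -0.076 where the median of all tested genes changed by -0.075. BobA did not pass the filter on low counts and was not tested. It had 5 and 19 reads in the mutant libraries (0.443 and 0.703 CPM), against 1 read in Canton S and 0 in RAL-208. Pooled within each genotype, the reads gave a ratio of 15.0, with an exact 95% interval for counting error of 2.44 to 616. Reads without a unique alignment, between 15.9% and 18.9% of the counted reads, were assigned to no gene, and whether any of them belong to BobA was not tested.

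The 7 tested members, chosen by name but with earlier results of these data known, can be read against all tested genes. Both mutant libraries lay above both wild types for 5 of the 7, as they did for 26.2% of the 9059 tested genes, and below both for 1 of the 7, E(spl)m6-BFM, as for 41% of tested genes. The median log2 fold change of the members was 0.56, beside 0.0014 over all tested genes. At an unadjusted p under 0.05 in edgeR with summed mutant libraries, 5 members were higher, where 6.44% of tested genes were, and 1 was lower, where 10.2% were. No tested member owed its place to the filter in 1 genotype alone, since the lowest level of any of them was 1.96 CPM.

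Other fits of the same counts gave more calls. Entered as 4 separate libraries in edgeR, the data gave adjusted p-values under 0.05 for the 5 members named as higher (0.0112 for Tom to 0.0244 for E(spl)m2-BFM) and for E(spl)m6-BFM as lower (0.0373), while 8.05% of tested genes were called higher and 11.3% lower. That fit takes technical replicates for independent samples, which makes its p-values too small. DESeq2 on summed mutant libraries called Tom (adjusted p = 0.000925) and Brd (adjusted p = 0.00139) higher, where it called 1.68% of tested genes higher and 4.28% lower, and limma-voom called 0% in either direction.

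The wild-type strains differed from each other by gene. RAL-208 exceeded Canton S 1.82-fold for Ocho, the only tested member past 1.5-fold between strains, as it did for 9.42% of tested genes, and Canton S was at least 1.5-fold above RAL-208 for none of the tested members and for 7.51% of tested genes. Canton S exceeded RAL-208 by 1.40-fold for Brd, 1.20-fold for E(spl)m2-BFM, 1.13-fold for E(spl)m4-BFM and 1.05-fold for Tom. E(spl)malpha-BFM was 1.12-fold and E(spl)m6-BFM 1.22-fold higher in RAL-208. With 1 library per strain these differences have no replicate check. The mutant difference exceeded the strain difference in size for 6 of the 7 tested members on the scale of log2(CPM + 0.5), as it did for 59% of tested genes.

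**Figure D2:**
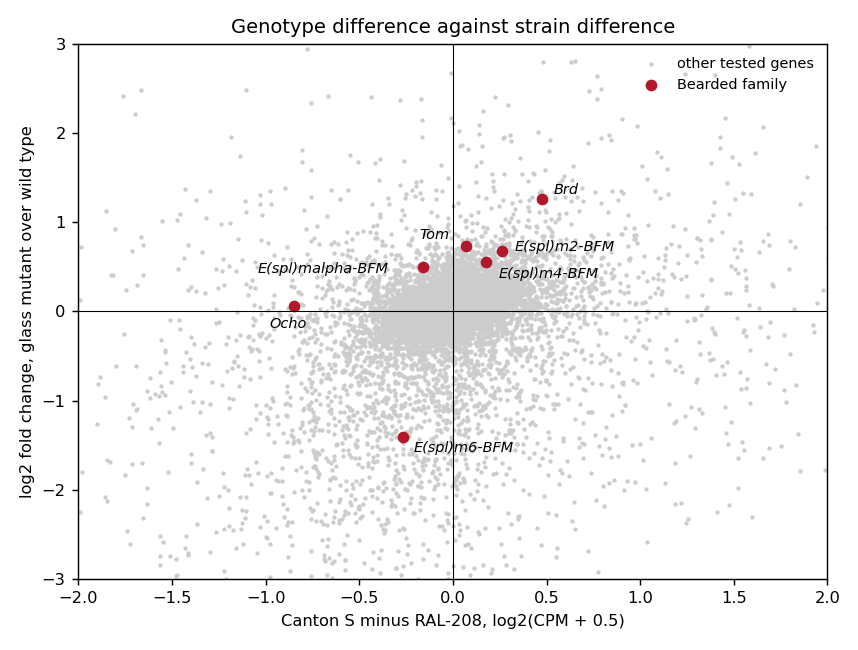
Fitted log2 fold change of the glass mutant over wild type (vertical axis) against the difference between Canton S and RAL-208 in log2(CPM + 0.5) (horizontal axis), with the 7 tested Bearded family genes in red and other tested genes in grey (315 genes lie outside the axes). Brd stands highest at 1.26, Ocho lies far to the left near 0 on the vertical axis, and E(spl)m6-BFM is the only family gene clearly below 0.

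Between the mutant libraries, 4 of the 8 members differed by more than sampling noise at an unadjusted p under 0.05 in a chi-square test of their reads, where 13.7% of tested genes did. These were E(spl)malpha-BFM, E(spl)m4-BFM, E(spl)m2-BFM and Tom, and each was lower in the second library, by a ratio between 0.925 and 0.951. In CPM those differences were smaller than the distance of either library from the wild types. Brd agreed between the libraries at a ratio of 0.998. The chi-square test finds smaller differences in genes with more reads, and the 4 members had 1665 or more in each mutant library. The 13.7% covers tested genes at all levels, so it is not a like measure.

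Levels of different genes were compared per kilobase of exon, with lengths from the BDGP6 annotation, which run from 532 bases for Brd to 1193 for Ocho. In the mutant, Tom came first at 454 and 420 CPM per kilobase, ahead of E(spl)malpha-BFM at 415 and 394. In wild type the order was turned, with E(spl)malpha-BFM at 282 CPM per kilobase in Canton S and 315 in RAL-208, and Tom at 278 and 265 in the same strains. The Canton S values of these genes differ by little, so their order in wild type rests on RAL-208. E(spl)m4-BFM followed at 279 and 262 CPM per kilobase in the mutant libraries, against 202 in Canton S and 179 in RAL-208.

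Brd had 258 and 257 CPM per kilobase in the mutant libraries, just below E(spl)m4-BFM there, against 132 in Canton S and 94.4 in RAL-208. E(spl)m2-BFM had 154 and 142 in the mutant libraries, against 105 in Canton S and 87.3 in RAL-208, and its wild-type values overlap those of Brd. Far lower came Ocho, at a mean of 18.5 CPM per kilobase in the mutant and 18.9 in wild type, then E(spl)m6-BFM at 1.87 in the mutant and 5.08 in wild type, and BobA at 0.913 in the mutant and 0.0658 in wild type. The wild-type level per kilobase of E(spl)malpha-BFM exceeded that of 98.2% of tested genes, whereas that of E(spl)m6-BFM exceeded 21.3%.

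The Brd complex held a larger part of the family's reads in the mutant. Genes of the Brd complex took 48.2% and 48.3% of the Bearded family reads in the mutant libraries, against 44.1% in Canton S and 43.3% in RAL-208. Brd itself took 11.1% (95% Wilson interval 10.6 to 11.6) and 11.7% (11.4 to 12.1) in the mutant libraries, against 8.72% (8.18 to 9.30) in Canton S and 6.50% (6.01 to 7.02) in RAL-208. E(spl)malpha-BFM took 22.6% and 22.8% in the mutant libraries, against 23.8% in Canton S and 27.6% in RAL-208. Tom was the largest part in every library, with 35.3% and 34.6% in the mutant libraries against 33.4% in Canton S and 33.0% in RAL-208. These intervals cover counting error only, since reads are not independent molecules, and as shares of 1 total they do not vary independently.

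**Figure D3:**
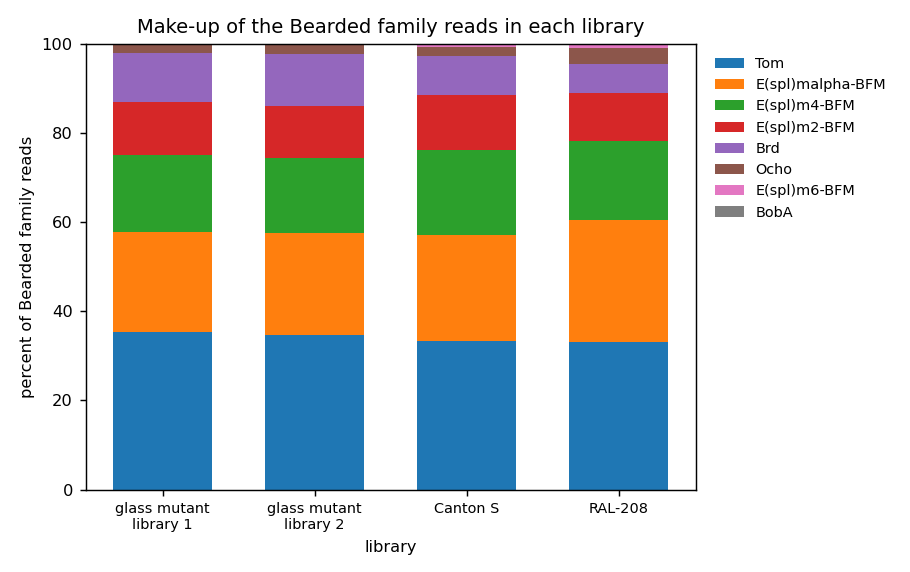
Share of the Bearded family reads held by each member, in percent of the family's reads, for both mutant libraries and both wild-type strains. Tom and E(spl)malpha-BFM held the largest parts in each library, and Brd held 11.1% and 11.7% in the mutant libraries, against 8.72% in Canton S and 6.50% in RAL-208.

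Other genes of the E(spl) complex encode basic helix-loop-helix (bHLH) repressors that act on proneural genes. Summed over the 7 bHLH genes, the level was 736 and 724 CPM in the mutant libraries, against 608 CPM in Canton S and 580 CPM in RAL-208, a ratio of 1.23. For every read of these genes the Bearded family had 1.68 and 1.61 reads in the mutant libraries, against 1.32 in Canton S and 1.33 in RAL-208. Of the 7 tested members of this list (Kaz-m1, the protease inhibitor gene also called E(spl)m1, was too low to test), 6 had both mutant libraries above both wild types, as 26.2% of tested genes did, and the median log2 fold change was 0.33. The exception was E(spl)m5-HLH, whose mutant levels lay between those of the strains. In edgeR with summed mutant libraries 0 passed when adjusted over all genes, and 3 were higher at an unadjusted p under 0.05, as 6.44% of tested genes were.

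The bHLH gene with the largest ratio was E(spl)m7-HLH, at 133 and 131 CPM in the mutant libraries against 106 CPM in Canton S and 86.1 CPM in RAL-208, a log2 fold change of 0.53. E(spl)mgamma-HLH had 140 and 136 CPM in the mutant libraries, against 102 CPM in Canton S and 117 CPM in RAL-208. E(spl)mbeta-HLH had 127 and 138 CPM in the mutant libraries, against 109 CPM in Canton S and 116 CPM in RAL-208. Along the complex, E(spl)m6-BFM lies between E(spl)m5-HLH, whose log2 fold change was 0.21 (-1.40 to 1.82), and E(spl)m7-HLH, and gro, the corepressor gene at the end of the complex, was at -0.04 (-0.36 to 0.28).

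**Figure D4:**
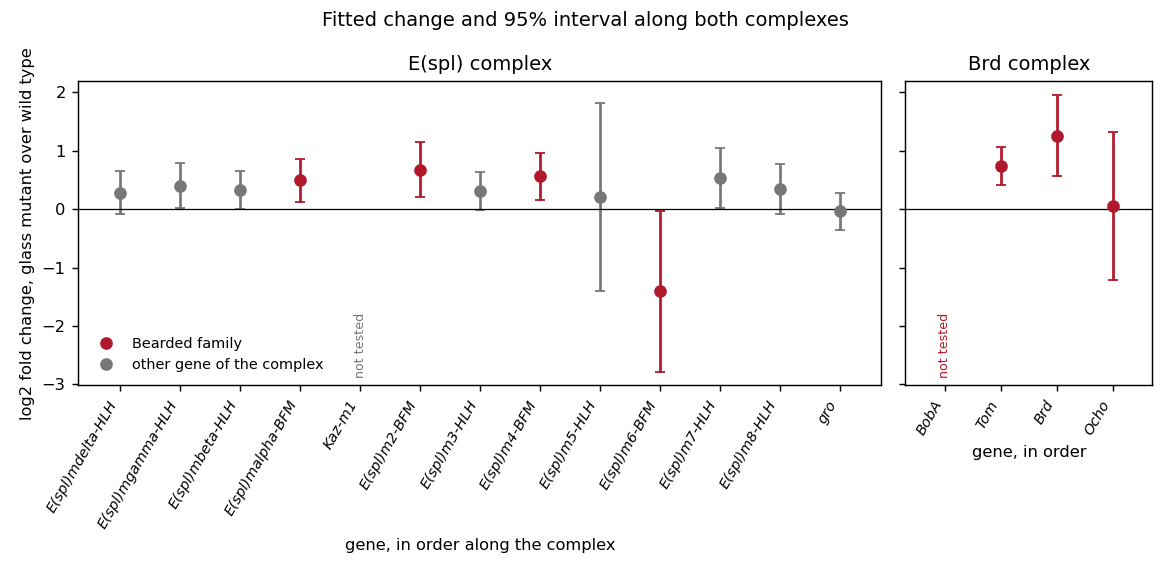
Fitted log2 fold change of the glass mutant over wild type with its 95% interval for each gene in its order along the E(spl) complex (left) and the Brd complex (right), Bearded family genes in red and others in grey. In the E(spl) complex the grey points other than gro lie between 0.21 and 0.53. The red point of E(spl)malpha-BFM at 0.50 lies within that range. Those of E(spl)m2-BFM at 0.68 and E(spl)m4-BFM at 0.56 lie above it, with intervals that overlap those of the grey points. E(spl)m6-BFM at -1.41 and gro at -0.04 are the points below 0.

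Genes of Notch signalling itself showed no common direction. Of 16 genes written in this list 14 were matched and tested, with a median log2 fold change of 0.02, and 6 had both mutant libraries above both wild types (26.2% of tested genes) while 6 had both below (41% of tested genes). In edgeR with summed mutant libraries 0 of the 14 had an unadjusted p under 0.05. The gene of Neuralized, neur, the binding partner of Bearded proteins, had 102 and 97.9 CPM in the mutant libraries, against 127 CPM in each wild-type strain. Its log2 fold change was -0.28, with an edgeR adjusted p of 0.336 with summed mutant libraries. In the edgeR fit of 4 libraries neur was called lower (adjusted p = 0.0352) and N, the receptor gene, higher (adjusted p = 0.0384), and these were the calls of that fit in this list, where 11.3% of tested genes were called lower and 8.05% higher. N stood at 1320 and 1317 CPM in the mutant libraries, against 1058 CPM in Canton S and 1143 CPM in RAL-208. The ligand gene Delta had 410 and 411 CPM in the mutant libraries, against 379 CPM in Canton S and 391 CPM in RAL-208. The gamma-secretase subunit gene pen-2 had 21.3 and 22.9 CPM in the mutant libraries, against 13.6 CPM in Canton S and 20.2 CPM in RAL-208.

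Among genes of proneural clusters and sense organ precursors, 9 of 10 were matched and 8 tested, with a median log2 fold change of 0.05. Both mutant libraries lay above both wild types for 1 gene and below both for 3, against 26.2% and 41% of tested genes. In edgeR with summed mutant libraries 1 gene, ase, was lower at an unadjusted p under 0.05, as 10.2% of tested genes were. The proneural gene of the photoreceptor founder cells, ato, had 61.1 and 60.5 CPM in the mutant libraries, against 77.0 CPM in Canton S and 64.7 CPM in RAL-208. The neural precursor gene ase had 8.24 and 6.58 CPM in the mutant libraries, against 15.7 CPM in Canton S and 23.3 CPM in RAL-208, and l(1)sc had 3 and 12 reads in the mutant libraries, against 13 in Canton S and 34 in RAL-208. Most abundant in the list was sca, which encodes a secreted factor of proneural clusters, at 207.6 and 203.6 CPM in the mutant libraries, against 193.9 CPM in Canton S and 208.5 CPM in RAL-208. Markers of the eye field were at a summed level of 1024 and 1037 CPM in the mutant libraries, against 964 CPM in Canton S and 871 CPM in RAL-208, and 3 of these 4 genes had both mutant libraries above both wild types, as 26.2% of tested genes did. Their part in the Bearded family values was not tested.

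Likeness of pattern was measured as the Euclidean distance over the 4 libraries of log2(CPM + 0.5) after subtracting each gene's mean. Nearest to the summed Bearded family stood CG5065 at a distance of 0.030, followed by SppL (0.034), GAA1 (0.038), COX7A (0.049) and tipE (0.052), and 317 tested genes lay within 0.25. Nearest to Brd were CG3823 (0.047), neo (0.053), PPO2 (0.054), Sobp (0.066) and CG3085 (0.094), with 31 genes within 0.25. Nearest to E(spl)m6-BFM were FBgn0004377 (0.047), dpr2 (0.050), CG10654 (0.064), FBgn0036616 (0.065) and CG11085 (0.066), with 94 genes within 0.25. With 4 libraries from 3 samples such distances describe shared levels alone.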

How the data were processed

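The deposited values are raw read counts for each FlyBase identifier, not normalized by the authors. Per the submitters' processing notes the build was dm3 and the tools included CASAVA 1.8, TopHat2 2.0 and HTSeq. No source used here gives the counting mode, the strand setting or the annotation release, and antisense reads cannot be told apart, although no other gene overlaps a family member in the BDGP6 annotation. That assembly is not dm3, so it served for names, exon lengths and gene order, and no coordinates are given. The 5 summary lines were left out, and gene reads were 74.4% to 76.7% of the total.

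Genes were tested in edgeR 4.0.16 (R 4.3.3) by quasi-likelihood with TMM scaling, filterByExpr at a minimum count of 10 on the 4 libraries, and Benjamini-Hochberg adjustment at 0.05 over 9059 genes. The mutant libraries were summed, which leaves 1 residual degree of freedom, and the mutant sample is assumed to vary like the wild types. Each gene's error was drawn toward values shared over all genes, with 2.533 prior degrees of freedom. Each 95% interval is the fold change ± its error (fold change over the square root of F) times the t quantile. Ratios of CPM carry no TMM scaling. DESeq2 1.42.0, limma-voom (limma 3.58.1), other scalings and filters and leaving out libraries were alternatives, and fits were tested on simulated data. The members and lists were chosen with earlier results of these data known. Named from each list were the genes with the largest differences and the most abundant ones. Of the written Notch entries mib1 and Psn, and of the proneural ones da, matched no identifier by symbol. The marker entries chp, para, Mhc and wupA were also unmatched. Of the 14885 identifiers 13746 had a symbol, so an unmatched gene may still be counted under an identifier without a symbol. Sequences and promoter motifs were not analysed here.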

Additional observations from a re-analysis of the deposited data

How the results depend on the processing

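With summed mutant libraries, edgeR called 0 genes lower, 0 higher and 0 Bearded family members, also under RLE scaling, no scaling factor, no filter, a filter on the 3 fitted columns (chosen after seeing the data), limma-voom and without either mutant library. At an unadjusted p under 0.05 that fit had 923 genes lower and 583 higher. The edgeR fit of 4 libraries called 1025 lower, 729 higher and 6 members, and DESeq2 388 lower, 152 higher and 2 members. The summed level of the family was 1.53-fold that of wild type, 1.61-fold with TMM-scaled and 1.60-fold with RLE-scaled library sizes, and 1.48-fold to 1.57-fold when each library was left out. Without a scaling factor the median log2 fold change of all tested genes was -0.073, against 0.0014 with TMM. Ocho reversed, to -0.022 without a scaling factor and to -0.31 without Canton S, and was 0.54 without RAL-208. The first is a change of -0.076, beside -0.075 for the median of all tested genes. The second compares the mutant with RAL-208 alone, where Ocho stood at 29.1 CPM, against 21.9 and 22.3 CPM in the mutant libraries. Why the strains differ for Ocho was not tested. Leaving out each library, the log2 fold change ran from 1.03 to 1.53 for Brd, 0.69 to 0.79 for Tom, 0.55 to 0.82 for E(spl)m2-BFM, 0.47 to 0.66 for E(spl)m4-BFM, 0.42 to 0.57 for E(spl)malpha-BFM and -1.54 to -1.27 for E(spl)m6-BFM. Without a wild-type library no residual degree of freedom remains among samples, so those values carry no test. No paired analysis was possible because the wild-type libraries are different strains without replicate numbers in the labels. Depth limits BobA, with 1 wild-type read, and E(spl)m6-BFM, with 26 to 75 reads a library.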
